A study of Mus musculus with 72 samples.

Results

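The clustered protocadherins are neuronal cell-surface proteins of the cadherin superfamily, encoded in 3 neighbouring gene clusters named alpha, beta and gamma. Members were the protein-coding genes whose symbol starts with Pcdha, Pcdhb or Pcdhg followed by a number or by the letters a, b or c. This rule found 56 of the 55401 genes in the count table, of which 14 were alpha, 21 beta and 21 gamma genes, each counted in 72 libraries. It used names only, so that no measured value chose a member. A further beta gene that the rule names, Pcdhb1, had 38 counts over the 72 libraries and stood outside the gene tables joined here, and Pcdhgb8, annotated as a polymorphic pseudogene, had 36340 counts and was not a member.

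RNA came from the right hemisphere of the brain of single C57Bl/6NTac mouse pups, with 1 library per pup, after exposure to morphine or saline in 3 windows. In the PND1 window the dam carried a pump giving 10 mg/kg/day of morphine, or saline, and pups were taken on postnatal day 1. In the PND14 window pups were injected with 10 mg/kg of morphine, or with saline, up to postnatal day 14. In the 3-trimester window (3-Tri) both exposures were given. The PND14 and 3-Tri brains were both collected at day 14, with 6 h between the final dose and dissection. For PND1 brains the 6 h ran from the time at which the pups were found. Litters of dams with a pump were moved to a surrogate dam after birth. Which pups shared a litter is not given in the labels, so that p-values measure the spread between these pups and may be too small. The PND1 groups held 4 females and 6 males exposed to morphine, against 7 females and 7 males exposed to saline. Each of the 8 groups of the PND14 and 3-Tri windows held 6 pups. Counts per library ranged between 20742862 and 27333125 at PND1, between 4407544 and 21404819 at PND14 and between 3113919 and 19938980 at 3-Tri. Male and female refer to the sex label throughout. The transcripts that distinguish the sexes went against the label in 16 of the 72 libraries, 4 of them at PND1, 0 at PND14 and 12 at 3-Tri. This count does not tell a swapped label from a library that holds RNA of both sexes. Mixing of RNA between pups was not tested, in these libraries or in those that went with their label.

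Each alpha and gamma gene begins with a large variable exon that has a promoter of its own and is spliced to constant exons shared by the whole cluster, whereas beta genes are single exons with no constant region. A neuron switches on a small random choice of these promoters, and the proteins bind only to the same combination on another membrane, by which branches of 1 neuron recognise and avoid each other. The last genes of the alpha and gamma clusters, the C-types (Pcdhac1, Pcdhac2, Pcdhgc3, Pcdhgc4 and Pcdhgc5), are not chosen at random and differ from the others in the timing and place of their expression. In the mouse, Pcdhac2 is needed for serotonergic axons to spread evenly, Pcdhgc4 for the survival of developing neurons, and Pcdhgc3 for dendrite branching in cortical neurons.

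On mm10 the members lie on the plus strand of chromosome 18, with the alpha cluster between positions 36930184 and 37187661, the beta cluster between 37294812 and 37524479, and the gamma cluster between 37661793 and 37841873. The order of the genes mattered for what the counts held. In the alpha cluster, 936 of 936 pairs of neighbouring genes within a library had a count at least as high for the upstream gene, and the count was strictly higher in 927 of them and lower in 0. In the gamma cluster, including Pcdhgb8, the same held in 1512 of 1512 pairs, with a strictly higher count in 1507. Over all libraries the first alpha gene, Pcdha1, had 44188 counts and the last, Pcdhac2, had 18731. The first gamma gene, Pcdhga1, had 58187 counts and the last, Pcdhgc5, had 27273. The deposited value of an alpha or gamma gene therefore behaved as the sum of everything counted between that gene's start and the shared end of its cluster, and the values of neighbours were nearly the same number.

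**Figure D1:**
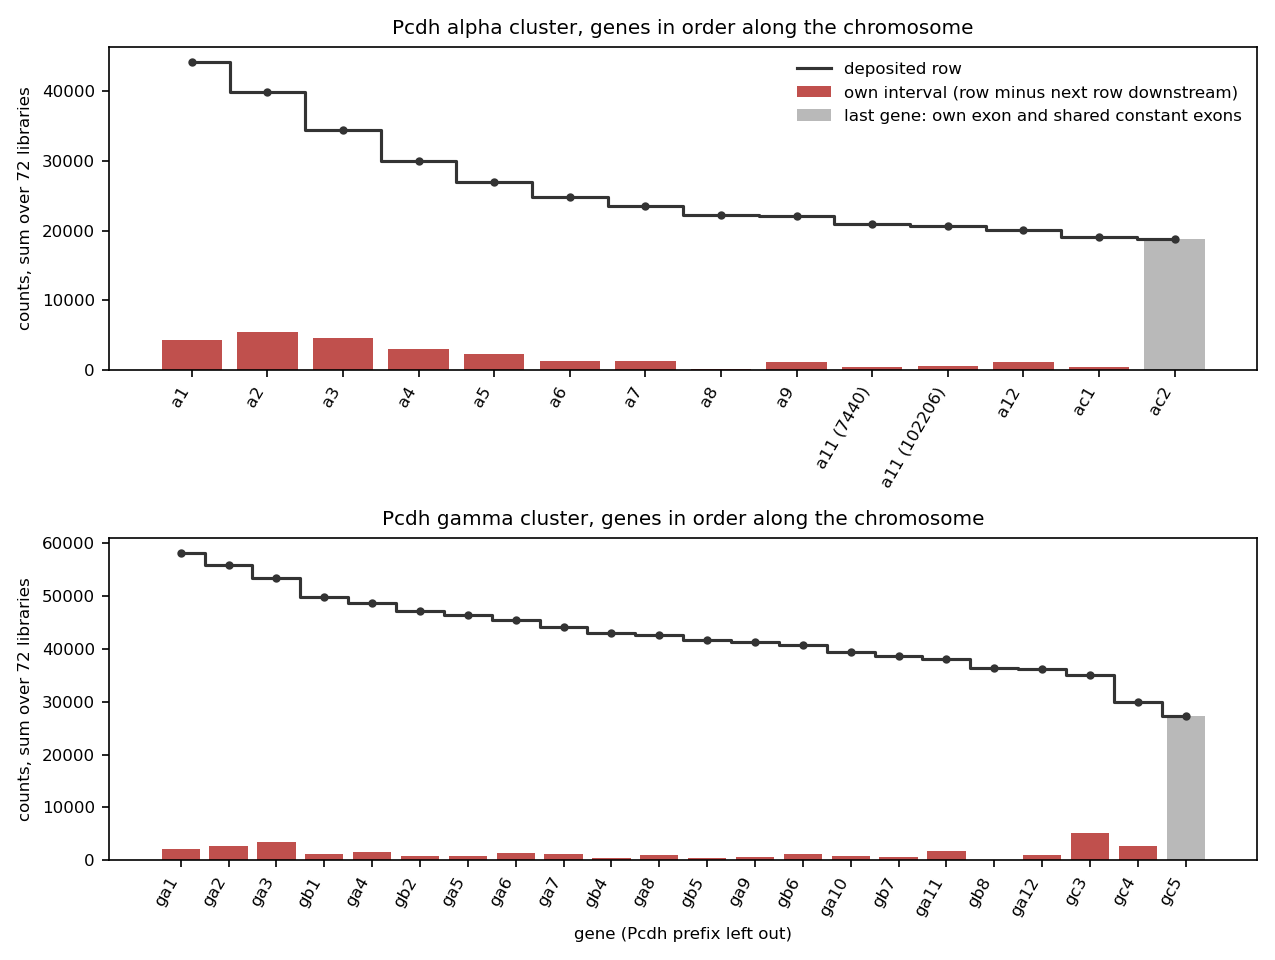
Counts summed over 72 libraries (y axis) for the 14 alpha genes and for the gamma genes with Pcdhgb8, in their order along the chromosome (x axis, Pcdh prefix left out). The line is the deposited value, red bars are the intervals and grey bars are the last genes. The line steps down without exception, with 44188 counts at Pcdha1 against 18731 at Pcdhac2, and with 58187 at Pcdhga1 against 27273 at Pcdhgc5.

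To look at single alpha and gamma genes, the value of the next gene downstream was subtracted from each gene's value. The difference, called the interval here, holds fragments that lie between the start of a gene and the start of the next, which include its own variable exon. It may also hold unspliced RNA from promoters upstream, or RNA of other annotated genes. Over the 72 libraries BC037039 had 3275 counts, against 5111 in the Pcdhgc3 interval. Gm37165 had 1767, against 1574 between the starts of Pcdhga7 and Pcdhga8. Gm26672 had 4448, against 4325 between the starts of Pcdhga10 and Pcdhgc3. The part of such genes in the intervals was not tested. An interval made up between 0.404% (Pcdha8) and 14.5% (Pcdhgc3) of the gene's deposited count. The last gene of each cluster has nothing to subtract, so that Pcdhac2 and Pcdhgc5 still hold the shared constant exons and are called the alpha and gamma ends below. Beta genes needed no subtraction. Intervals were chosen after the nesting was seen, and both readings are given below.

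Levels were given as CPM, the counts of a gene divided by the library's count total and scaled up to a common total, after adjustment of the libraries by trimmed means. The total of the alpha cluster, read as the value of Pcdha1, was 31.3, 35.9 and 39.2 CPM (lowest, median and highest library) in PND14 saline pups, against 27.9, 31.6 and 35.4 CPM in PND1 saline pups. The total of the gamma cluster, read as the value of Pcdhga1, was 44.3, 47.5 and 51.6 CPM at PND14, against 36.3, 43.2 and 47.0 CPM at PND1. The 21 beta genes summed to 37.1, 42.4 and 46.2 CPM at PND14, against 38.7, 42.2 and 45.1 CPM at PND1. The 3 totals thus lay between 27.9 and 51.6 CPM in these pups, and the libraries of the 2 ages overlapped for each total. The deposited values read as the alpha and gamma totals rose with age, as given below. CPM is not scaled to length, and only the alpha and gamma totals hold constant exons. The totals therefore do not compare the amount of RNA between clusters.

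**Figure D2:**
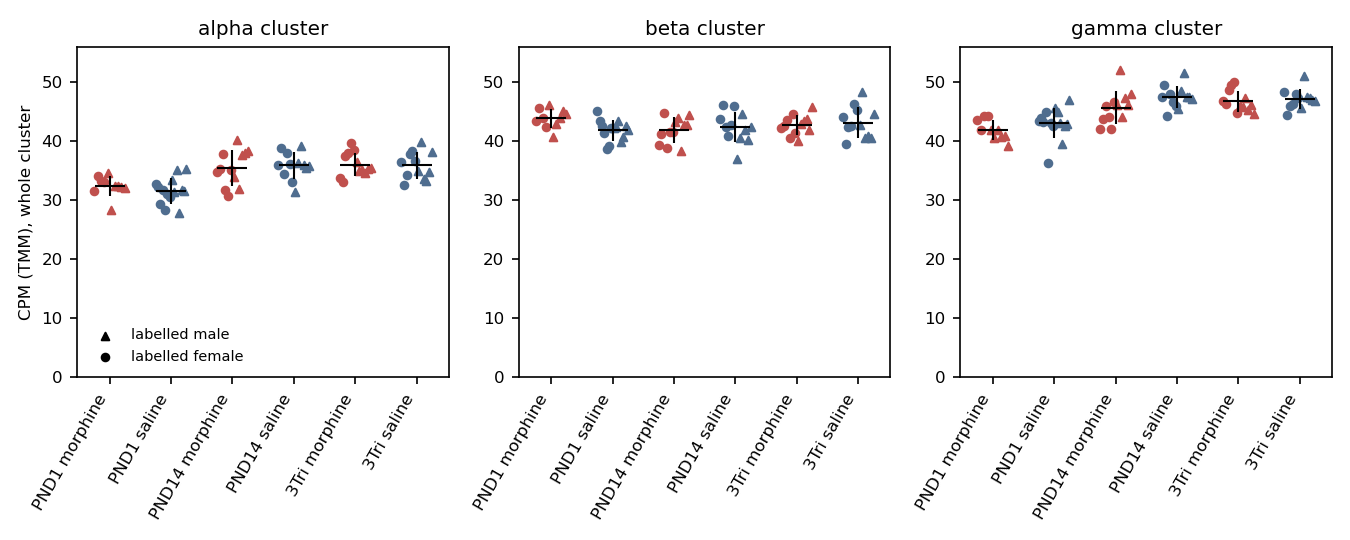
Cluster totals in CPM (y axis) as 1 point per library, with the mean and SD, by exposure window and drug (x axis, morphine in red and saline in blue), with triangles for males and circles for females. Totals lie between 27.9 and 40.3 CPM for alpha, between 37.1 and 48.4 CPM for beta and between 36.3 and 52.2 CPM for gamma, and morphine and saline libraries overlap in every window.

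Per kilobase of the gene's own exon, the levels of single members spanned a wide range. In PND1 saline pups the alpha intervals lay between 0.0262 CPM per kb (Pcdha8) and 1.86 CPM per kb (Pcdha2), with a median of 0.405. The beta genes lay between 0.160 CPM per kb (Pcdhb14) and 1.24 CPM per kb (Pcdhb20), with a median of 0.382. The gamma intervals lay between 0.0823 CPM per kb (Pcdhgb5) and 1.06 CPM per kb (Pcdhgc3), with a median of 0.296. The order within a cluster was much alike at both ages. Spearman's rho between the PND14 and PND1 saline levels was 0.99 across 13 alpha intervals and 0.84 across 21 beta genes. It was 0.97 across 20 gamma intervals. The ages had separate libraries, which the clusters shared, and the exon lengths were in common. The same member led its cluster at both ages. Pcdha2 had 1.57 CPM per kb in PND14 saline pups, against 1.86 in PND1 saline pups, Pcdhb20 had 0.960, against 1.24, and Pcdhgc3 had 1.33, against 1.06. The Pcdhgc3 interval may also hold RNA of BC037039, and Pcdhga3 came next, with 1.11 CPM per kb at PND14, against 0.999 at PND1. At PND14 the runner-up Pcdhb9, with a level of 2.39, 2.94 and 3.34 CPM, did not differ from Pcdhb20 per kilobase beyond the spread of either. Pcdha8 had at most 3 counts in any saline library at PND14 or PND1.

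The largest differences were between ages. In saline pups, the deposited values of 41 members rose and 6 fell at PND14 relative to PND1 (edgeR quasi-likelihood test with Benjamini-Hochberg adjustment over 22010 genes, adjusted p below 0.05). Of all genes tested, 41.7% rose and 43.2% fell. With each nested value counted as a member, the share that rose was above this background and the share that fell was below it. The members that rose were 14 of 14 alpha genes, with a median log2 fold change of 0.31, 21 of 21 gamma genes, with a median of 0.20, and 6 of 21 beta genes. Since alpha and gamma values are nested, these 35 rises are not 35 separate measurements. The median over the beta genes was 0.00, and the median over all genes tested was -0.02. Age, the route by which saline was given and library depth differed together between the windows and cannot be told apart. In bulk tissue, fewer cells of a type and less RNA per cell cannot be told apart either.

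Read as intervals, the same comparison gave a mixed picture. Of 49 members tested, 14 rose and 12 fell, against 41.6% and 43.2% of 22002 genes tested. Read this way, the share that rose and the share that fell were both below the background. In the alpha cluster 4 of the 10 tested members rose and 1 fell, in the gamma cluster 4 of 18 rose and 5 fell, and in the beta cluster 6 of 21 rose and 6 fell. The remaining 7 intervals, of Pcdha8, both genes named Pcdha11, Pcdhac1, Pcdhgb4, Pcdhgb5 and Pcdhga9, had too few counts to pass the filter. Of the 28 alpha and gamma intervals tested, 6 passed the threshold in the direction opposite to the deposited value of the same gene. They were Pcdha2, Pcdhga2, Pcdhga4, Pcdhgb6, Pcdhgb7 and Pcdhgc4, whose intervals fell whereas their deposited values rose. Without the libraries that went against their sex label, 12 of 50 tested members rose and 12 fell.

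**Figure D3:**
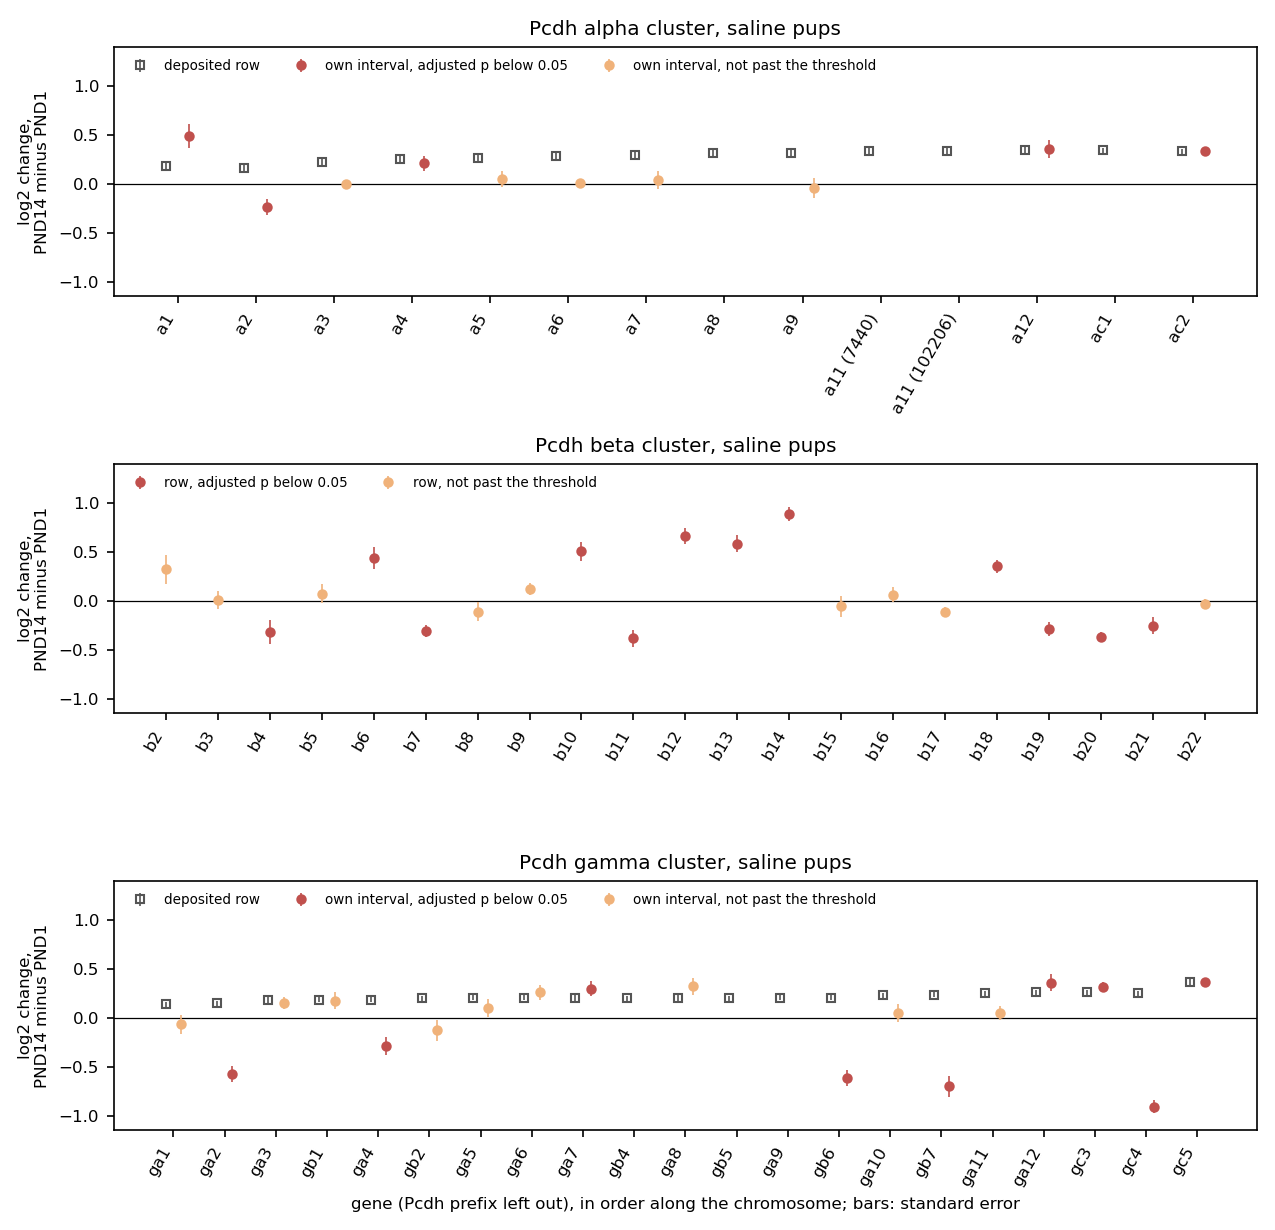
Log2 fold change (PND14 minus PND1, saline pups; y axis) of each member in its order along the chromosome (x axis), with its standard error. For some members the standard error is smaller than the edgeR p-value implies. Squares are the deposited values of alpha and gamma genes, and circles are intervals or beta genes, in red where they passed the threshold. The squares lie between 0.14 and 0.36, whereas the circles of alpha and gamma genes spread between -0.91 (Pcdhgc4) and 0.49 (Pcdha1).

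The C-type genes of the gamma cluster moved in opposite directions. Pcdhgc4 (ENSMUSG00000023036.14) had an interval of 1.30, 1.46 and 1.76 CPM (lowest, median and highest of 12 libraries) in PND14 saline pups, against 2.22, 2.91 and 3.11 CPM in 14 PND1 saline pups. The groups did not overlap, and the counts behind them were between 10 and 29 at PND14, against between 52 and 90 at PND1. The log2 fold change was -0.91 ± 0.068 (SE; edgeR adjusted p = 3.26e-20), the largest fall among the members. The deposited value of the same gene rose, with a log2 fold change of 0.25 (edgeR adjusted p = 5.58e-12), since it also counts everything downstream of Pcdhgc4.

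Pcdhgc3 (ENSMUSG00000102918.1) had an interval of 3.83, 4.48 and 5.12 CPM in PND14 saline pups, against 3.10, 3.62 and 3.89 CPM in PND1 saline pups. Only the lowest libraries of PND14 reached the highest of PND1, and the log2 fold change was 0.32 ± 0.047 (edgeR adjusted p = 5.64e-06). BC037039 may contribute to this interval, and its part in the rise was not tested. The gamma end, Pcdhgc5 (ENSMUSG00000102543.5), stood at 22.2, 24.3 and 25.2 CPM at PND14, against 16.6, 18.8 and 19.9 CPM at PND1. These groups did not overlap, and the log2 fold change was 0.37 ± 0.031 (edgeR adjusted p = 1.92e-17). The gamma end made up 50.5% ± 1.73 of the gamma total in PND14 saline pups (SD, n = 12), against 43.2% ± 2.23 in PND1 saline pups (SD, n = 14).

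The alpha end, Pcdhac2 (ENSMUSG00000102697.1), stood at 14.5, 15.8 and 17.5 CPM in PND14 saline pups, against 11.1, 12.6 and 13.8 CPM in PND1 saline pups. The groups did not overlap, and the log2 fold change was 0.33 ± 0.030 (edgeR adjusted p = 1.13e-16). It made up 44.2% ± 2.35 of the alpha total at PND14 (SD, n = 12), against 39.9% ± 2.07 at PND1 (SD, n = 14). Pcdhac1 (ENSMUSG00000103255.1), the other C-type of the alpha cluster, was close to the limit of these libraries. Its interval was 0.205, 0.308 and 0.459 CPM at PND14, against 0.0852, 0.164 and 0.217 CPM at PND1, from between 2 and 8 counts per library at PND14 and between 2 and 6 at PND1, and was not tested.

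**Figure D4:**
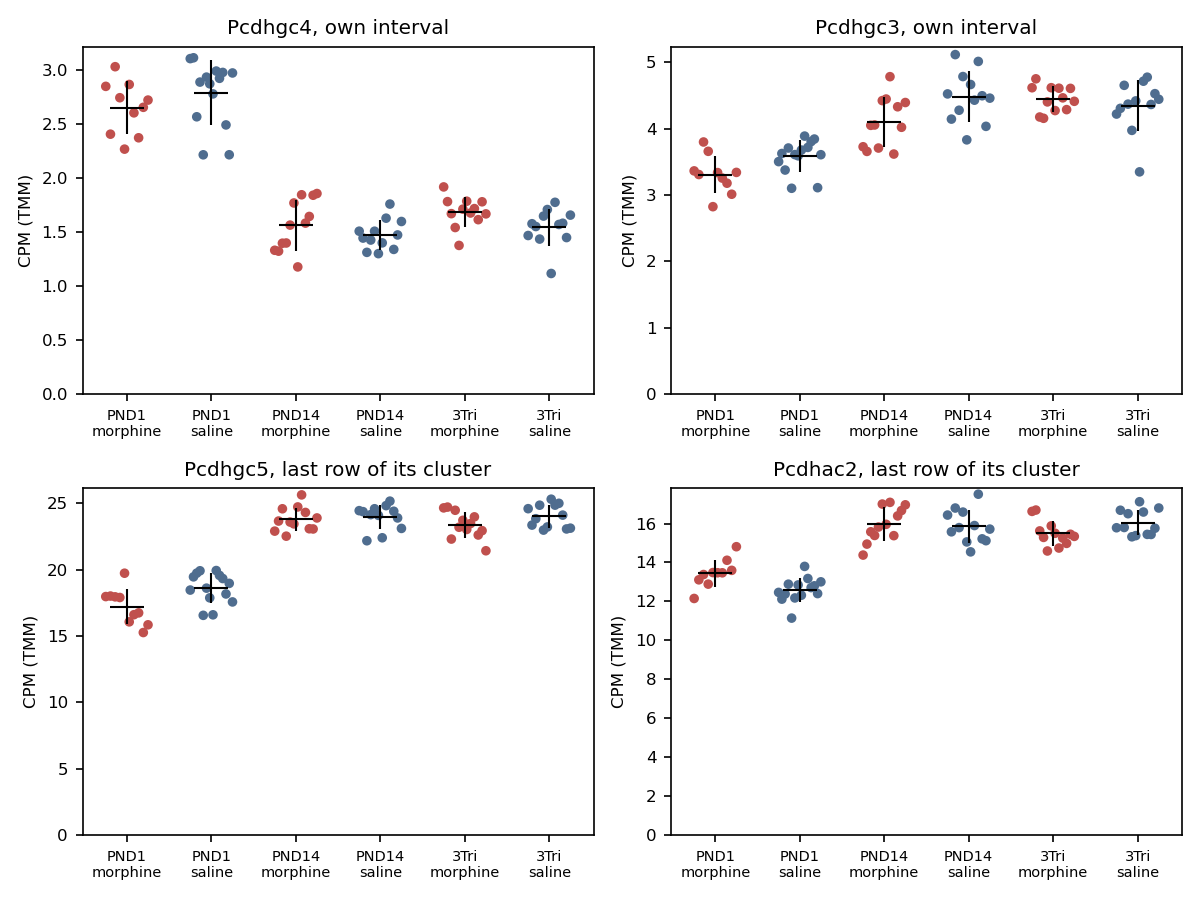
Levels in CPM (y axis) of the intervals of Pcdhgc4 and Pcdhgc3 and of the cluster ends Pcdhgc5 and Pcdhac2, as 1 point per library with the mean and SD, by exposure window and drug (x axis, morphine in red and saline in blue). Pcdhgc4 has a median of 1.46 CPM in PND14 saline pups, against 2.91 CPM in PND1 saline pups, and Pcdhgc5 has a median of 24.3 CPM in PND14 saline pups, against 18.8 CPM in PND1 saline pups.

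Among the randomly chosen alpha genes, the interval of Pcdha1, the most upstream gene, was 1.83, 3.65 and 4.89 CPM in PND14 saline pups, against 1.58, 2.59 and 3.97 CPM in PND1 saline pups. The groups overlapped widely, and the log2 fold change was 0.49 ± 0.12 (edgeR adjusted p = 0.000217). Pcdha12 was 0.700, 0.905 and 1.18 CPM at PND14, against 0.635, 0.720 and 0.768 CPM at PND1, and rose with a log2 fold change of 0.36 ± 0.088 (edgeR adjusted p = 0.0208), but did not pass with DESeq2. Its SE is smaller than this p-value implies, as are the SEs of Pcdhgc3, Pcdhga12, Pcdhgb6 and Pcdhgb7, and understates the uncertainty. Pcdha4 rose as well (log2 fold change 0.21, edgeR adjusted p = 0.0242). With DESeq2, 2 of the 10 tested alpha members rose and 1 fell. Pcdha2, the most abundant alpha interval, was 3.40, 3.87 and 4.98 CPM at PND14, against 3.94, 4.71 and 5.41 CPM at PND1, and it fell by 0.24 on the log2 scale (edgeR adjusted p = 0.00403). For the 5 alpha intervals that did not pass (Pcdha3, Pcdha5, Pcdha6, Pcdha7 and Pcdha9), the log2 fold change lay between -0.05 and 0.05.

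Among the randomly chosen gamma genes, 4 intervals fell and 2 rose. Pcdhga2 was 1.02, 1.60 and 2.06 CPM in PND14 saline pups, against 1.74, 2.31 and 2.84 CPM in PND1 saline pups, with a log2 fold change of -0.58 ± 0.079 (edgeR adjusted p = 1.38e-08). Pcdhgb6 was 0.616, 0.774 and 0.968 CPM at PND14, against 0.950, 1.19 and 1.33 CPM at PND1, with a log2 fold change of -0.62 ± 0.078 (edgeR adjusted p = 1.73e-05). Pcdhgb7 was 0.262, 0.364 and 0.456 CPM at PND14, against 0.475, 0.629 and 0.770 CPM at PND1, with a log2 fold change of -0.70 ± 0.11 (edgeR adjusted p = 0.000572), from between 2 and 8 counts at PND14 and between 12 and 18 at PND1. The libraries of Pcdhgb7 did not overlap, and those of Pcdhgb6 and Pcdhga2 did so at the edges. Pcdhga4 fell by 0.29 on the log2 scale (edgeR adjusted p = 0.0259). Pcdhga12 was 0.684, 0.937 and 1.14 CPM at PND14, against 0.634, 0.728 and 0.894 CPM at PND1, and rose with a log2 fold change of 0.36 ± 0.087 (edgeR adjusted p = 0.0175). Pcdhga7 rose as well (log2 fold change 0.30, edgeR adjusted p = 0.0414). With DESeq2, 3 of the 18 tested gamma members, C-types included, rose and 5 fell.

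The beta genes, whose values are not nested, split evenly into 6 that rose, 6 that fell and 9 that did not pass. Pcdhb14 rose most, with 2.10, 2.69 and 3.54 CPM in PND14 saline pups, against 1.19, 1.38 and 1.71 CPM in PND1 saline pups, and a log2 fold change of 0.89 ± 0.073 (edgeR adjusted p = 2.04e-18). Pcdhb12 was 1.53, 1.99 and 2.65 CPM at PND14, against 0.898, 1.25 and 1.52 CPM at PND1, with a log2 fold change of 0.66 (edgeR adjusted p = 1.35e-09). The PND14 and PND1 libraries did not overlap for either gene. Pcdhb13 was 1.14, 1.60 and 2.23 CPM at PND14, against 0.810, 1.07 and 1.34 CPM at PND1, and rose with a log2 fold change of 0.59 ± 0.083. Pcdhb10 (log2 fold change 0.51), Pcdhb6 (0.44) and Pcdhb18 (0.35) also rose.

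Pcdhb20, the most abundant beta gene per kilobase at PND1, was 2.80, 3.42 and 3.87 CPM in PND14 saline pups, against 4.08, 4.41 and 4.78 CPM in PND1 saline pups, with a log2 fold change of -0.38 ± 0.051 (edgeR adjusted p = 1.26e-07). Its libraries did not overlap between the ages. Pcdhb7 was 2.29, 2.63 and 3.60 CPM at PND14, against 3.03, 3.45 and 3.84 CPM at PND1, and Pcdhb19 was 2.10, 2.95 and 3.60 CPM at PND14, against 3.02, 3.54 and 4.26 CPM at PND1. Both overlapped, and both fell, by 0.31 and by 0.29 on the log2 scale. Pcdhb11 (log2 fold change -0.38), Pcdhb4 (-0.32) and Pcdhb21 (-0.25) fell too. Across the 21 beta genes, the PND1 level per kilobase and the log2 fold change had a Spearman's rho of -0.49, as a description from libraries that entered both measures. At PND14 the range of the beta genes was narrower, between 0.216 and 0.960 CPM per kb, against between 0.160 and 1.24 CPM per kb at PND1. GC content of the exon and the log2 fold change had a rho of 0.25 over the beta genes, and position along the cluster a rho of -0.16.

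Both sexes contributed to the change with age. For the 26 members that passed as intervals or beta genes, the log2 fold change had the same sign in males and in females in 26 of 26, within the libraries that made the calls. Of the 49 members tested in each sex alone, 8 rose and 10 fell in males, and 12 rose and 7 fell in females. The difference between the sexes was tested directly, and 0 members passed with edgeR, for deposited values or intervals, against 0.00454% of all genes. DESeq2 called 0 members as well, against 4 of 22010 genes. At an unadjusted p below 0.05 there were 0 members, against 6.37% of genes with deposited values and 6.36% with intervals.

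The morphine pups, a separate set of libraries, gave the change with age a further measurement. The PND1 pups had morphine before birth and the PND14 pups after it, so that age and exposure cannot be told apart. In morphine pups the deposited values of 41 members rose and 8 fell at PND14 relative to PND1, against 41.8% and 41.6% of all genes tested. As intervals, 12 rose and 14 fell of 49 tested, against 41.8% and 41.6%. For the 26 members that passed in saline pups the sign was the same in morphine pups in 26 of 26, and 20 of them passed there too. The interval of Pcdhgc4 had a log2 fold change of -0.74 (edgeR adjusted p = 4.92e-12) in morphine pups, and that of Pcdhgb7 of -0.90 (edgeR adjusted p = 7.25e-05). Pcdhgc3 (log2 fold change 0.30), the gamma end (0.46) and the alpha end (0.27) rose, and Pcdhb14 (0.76) and Pcdhb12 (0.79) rose among the beta genes.

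Whether the change with age differed between morphine and saline pups was tested as an interaction. Morphine was given before birth at PND1 and after birth at PND14, so that this difference also holds the difference in exposure. With edgeR, 0 of 56 deposited values and 0 of 49 intervals passed, against 13.3% of all genes. DESeq2 called 0 members, against 1583 genes with a positive and 1784 with a negative difference, of 22010. At an unadjusted p below 0.05 there was 1 deposited value (Pcdhgc4) and there were 2 intervals (Pcdhga1 and Pcdhgb1), against 26.2% of genes with deposited values and 26.2% with intervals. The smallest adjusted p was that of the Pcdhga1 interval, whose log2 fold change with age was -0.46 in morphine pups, against -0.07 in saline pups, with a difference of -0.39 (edgeR adjusted p = 0.0682). This interval passed when the 2 libraries with the fewest counts were left out. Of the deposited values, 1 (Pcdhgc4) passed when replicate 5 of the PND1 morphine males was left out.

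The 3-Tri saline pups, taken at a like age to the PND14 pups, gave nearly the same values. Relative to PND1 saline pups, the deposited values of 42 members rose and 4 fell in 3-Tri saline pups, against 42.1% and 43% of all genes tested. As intervals 15 rose and 9 fell, against 42% and 43%. Without the libraries that went against their sex label, 11 intervals rose and 9 fell. The interval of Pcdhgc4 was 1.12, 1.57 and 1.78 CPM in 3-Tri saline pups, against 2.22, 2.91 and 3.11 CPM in PND1 saline pups, with a log2 fold change of -0.82 (edgeR adjusted p = 6.36e-18). Pcdhb14 was 2.17, 2.64 and 2.83 CPM in 3-Tri saline pups, against 1.19, 1.38 and 1.71 CPM in PND1 saline pups, with a log2 fold change of 0.89. The PND1 libraries are the same in both comparisons. Set directly against PND14 saline pups, 0 members passed in 3-Tri saline pups with edgeR, against 0% of all genes, and 0 with DESeq2, against 4 of 22010 genes. At an unadjusted p below 0.05 there were 0 members, against 3.28% of genes with deposited values and 3.29% with intervals, and the log2 differences of the members lay between -0.17 and 0.25. Pcdhb2 had the smallest p, with 0.372, 0.689 and 1.05 CPM in 3-Tri saline pups, against 0.311, 0.634 and 0.918 CPM in PND14 saline pups.

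The tissue around these genes changed as well between the ages. The summed level of 17 hindbrain and spinal cord genes was 1.34, 3.40 and 7.29 CPM in PND14 saline pups, against 14.0, 43.6 and 85.2 CPM in PND1 saline pups, and 17 of 17 fell, with 3 of them at 0 in every PND14 saline library. Of 9 oligodendrocyte genes 9 rose, of 7 astrocyte genes 6 rose, of 6 microglial genes 6 rose, and of 9 progenitor genes 7 fell. Genes of forebrain neurons, which express clustered protocadherins, summed to 6091, 6232 and 6868 CPM in PND14 saline pups, against 3096, 3359 and 3631 CPM in PND1 saline pups, with 8 of 15 that rose and 7 that fell. Of 5 genes of serotonergic neurons 1 rose and 3 fell, of 8 endothelial and blood genes 3 rose and 5 fell, and of 6 choroid plexus genes 1 rose and 5 fell. The part of these shifts in the protocadherin changes was not tested.

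In this comparison 41.7% of all genes rose and 43.2% fell, so that a gene that passed was the usual case, also among the genes that act with the clusters. Of 17 regulators of the clustered protocadherin promoters 3 rose and 13 fell at PND14 in saline pups, with a median log2 fold change of -0.60. Dnmt1, the maintenance DNA methyltransferase, had a log2 fold change of -1.14, Setdb1, a histone methyltransferase, of -0.82, and Dnmt3a, a de novo DNA methyltransferase, of 1.25 (all past the edgeR threshold). Of 18 signalling and processing partners 15 rose and 3 fell. They included Ptk2b, a kinase that binds clustered protocadherin tails, with a log2 fold change of 2.97, Nckap1, a subunit of the WAVE complex that drives actin assembly, with 0.98, and Axin1, a scaffold that binds Pcdhgc3, with -0.86. Of the 10 non-clustered delta protocadherins, adhesion proteins encoded elsewhere, 7 rose and 3 fell, among them Pcdh1 (1.25), Pcdh20 (1.20) and Pcdh7 (0.90).

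Effects of morphine were small in comparison. The exception in deposited values was the gamma cluster of PND1 males. There 12 of 21 gamma genes fell with morphine (edgeR, adjusted p below 0.05), against 8.08% of all genes that fell, while 0 of 14 alpha and 0 of 21 beta genes passed. At an unadjusted p below 0.05 there were 23 members, 21 of them gamma and 2 alpha, against 29.9% of all genes. Because the gamma values are nested, the 12 genes share most of their counts and amount to little more than 1 measurement. The log2 fold changes of the 21 gamma genes lay between -0.16 and -0.10. Pcdhga12, with the smallest adjusted p, was 21.5, 23.0 and 25.4 CPM in morphine males, against 23.8, 25.3 and 27.5 CPM in saline males, with a log2 fold change of -0.16 ± 0.047 (edgeR adjusted p = 0.0257). The deposited values of Pcdhgc3, Pcdhga11, Pcdhgb6, Pcdhgb7 and Pcdhga10 came next, with edgeR adjusted p between 0.0261 and 0.0338. The value of Pcdhga1, the cluster total, was 39.2, 40.8 and 42.0 CPM in morphine males, against 39.6, 43.2 and 47.0 CPM in saline males (edgeR adjusted p = 0.128). The groups overlapped for both.

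The count of 12 rested on single libraries and settings. It was 0 when replicate 9 or 10 of the PND1 morphine males, or replicate 9, 10 or 11 of the PND1 saline males, was left out. It was 2, 3 and 6 without replicates 8, 6 and 7 of the morphine males, and 21 without replicate 5 of the PND1 saline females. It was 20 without the libraries against their sex label, 18 with DESeq2 (which called 1973 falling genes of 21714), and 0 with no filter on low counts or with a correction for GC content and length. The summed hindbrain and spinal cord genes were 31.8, 89.0 and 144.5 CPM in morphine males, against 19.1, 51.0 and 83.9 CPM in saline males, with 2 of 17 genes that rose and 1 that fell, and 0 of the 17 were at 0 in all libraries of either group. With that sum as a covariate, 0 members passed, and over all genes 754 rose and 1121 fell of 21714, against 1370 that rose and 1754 that fell without it. The 21 deposited gamma values were all negative with the covariate, with a median log2 fold change of -0.11, and 18 of them had an unadjusted p below 0.05.

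As intervals, 0 of 52 members passed in PND1 males with edgeR, against 14.3% of all genes, and 3 (Pcdhgc5, Pcdhgc3 and Pcdhac2) had an unadjusted p below 0.05, against 29.8%. With DESeq2, 1 passed, the gamma end Pcdhgc5, which fell, as did 1952 of 21709 genes. Pcdhgc5 was 15.3, 16.3 and 19.7 CPM in morphine males, against 16.6, 19.0 and 19.9 CPM in saline males, with a log2 fold change of -0.16 ± 0.057 (edgeR adjusted p = 0.0614). The highest of the morphine males, replicate 5, was a library against its sex label. Pcdhgc3 was 2.82, 3.22 and 3.34 CPM in morphine males, against 3.11, 3.72 and 3.89 CPM in saline males, with a log2 fold change of -0.22 ± 0.074 (edgeR adjusted p = 0.0697). Pcdhgc4 was 2.27, 2.63 and 2.87 CPM in morphine males, against 2.22, 2.92 and 2.99 CPM in saline males, and the alpha end Pcdhac2 was 13.5, 13.5 and 14.8 CPM in morphine males, against 12.3, 12.8 and 13.8 CPM in saline males (log2 fold change 0.10 ± 0.046, edgeR adjusted p = 0.144). Pcdhac1 had between 3 and 4 counts per library in morphine males, against between 2 and 5 in saline males. Morphine and saline males overlapped for each C-type gene. Of the 10 non-clustered delta protocadherins, 4 rose and 0 fell in these males, against 1370 that rose and 1754 that fell of 21714 genes, and the median log2 fold change of the 10 was 0.08. Their difference from the gamma cluster was not tested. Those that rose included Pcdh9 (log2 fold change 0.31, edgeR adjusted p = 0.00509) and Pcdh7 (0.27, edgeR adjusted p = 0.00231).

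**Figure D5:**
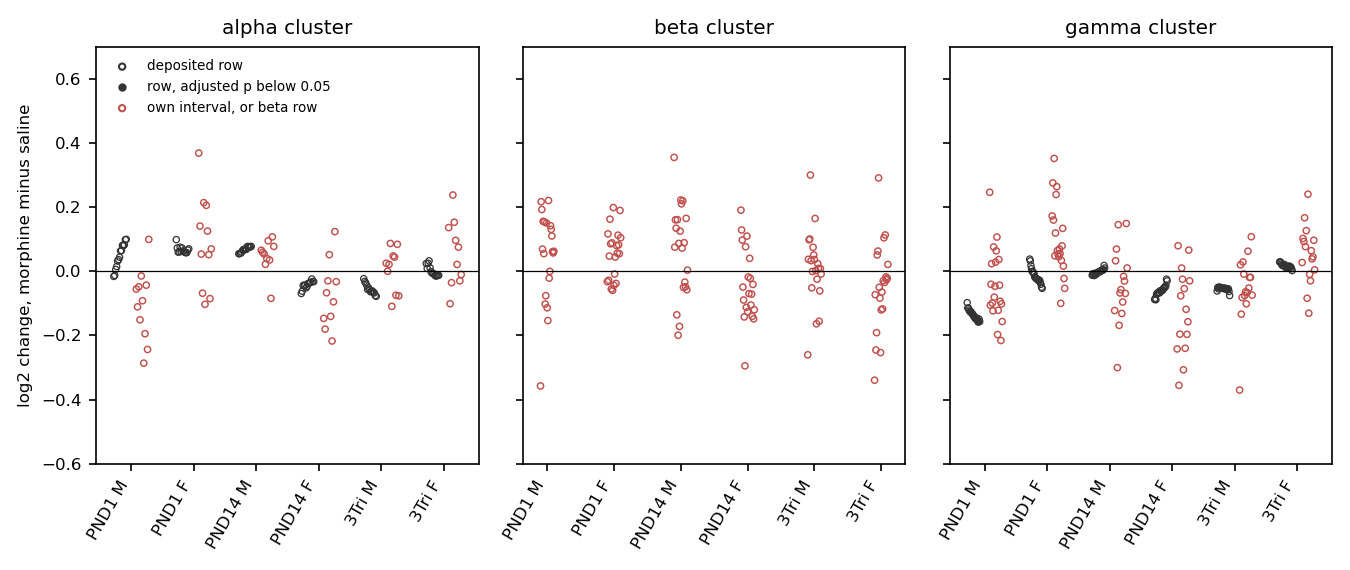
Log2 fold change with morphine (morphine minus saline; y axis) of each member, with 1 panel per cluster, in the 6 combinations of exposure window and sex label (x axis). Black circles are deposited values, filled where they passed the threshold, and red circles are intervals or beta genes. In PND1 males the 21 deposited gamma values lie between -0.16 and -0.10, whereas the gamma intervals lie between -0.22 and 0.25.

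In PND1 females 0 of 56 deposited values and 0 of 52 intervals passed with edgeR, against 0% of all genes. DESeq2 called 0 members, against 53 rising and 85 falling genes of 21714. At an unadjusted p below 0.05 there were 0 deposited values and 2 intervals (Pcdhga2 and Pcdha1), against 11.7% of genes with deposited values and 11.7% with intervals. Pcdhga2, with the smallest p among the intervals, had a log2 fold change of 0.28 ± 0.10 (edgeR adjusted p = 0.301). The gamma end was 17.90, 17.95, 17.97 and 18.01 CPM in the 4 morphine females, against 16.6, 18.6 and 19.9 CPM (lowest, median and highest) in saline females. Pcdhgc4 was 2.41, 2.74, 2.85 and 3.03 CPM in the morphine females, against 2.22, 2.89 and 3.11 CPM in saline females. Pcdhgc3 was 3.31, 3.36, 3.66 and 3.80 CPM in the morphine females, against 3.10, 3.59 and 3.71 CPM in saline females. All but the highest of these values of Pcdhgc3 lay within the range of the saline females. The alpha end was 12.2, 12.9, 13.1 and 13.4 CPM in the morphine females, against 11.1, 12.4 and 12.9 CPM in saline females, and Pcdhac1 had between 3 and 4 counts per library, against between 3 and 6. The difference of the morphine effect between PND1 males and females passed for 0 members with edgeR or DESeq2, against 0% of all genes. It had an unadjusted p below 0.05 for 2 deposited values (Pcdhga2 and Pcdhga1) and 2 intervals (Pcdhga2 and Pcdha7), against 5.47% of genes with deposited values and 5.47% with intervals. A fall of the gamma cluster that is particular to males was therefore not shown. Over the 21 deposited gamma values this difference (males minus females) lay between -0.15 and -0.10.

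In the PND14 window 0 members passed in either sex with edgeR, as deposited values or as intervals. DESeq2 called 0 members as well, but it gave no adjusted p to the beta genes in either sex. In females it also gave none to the deposited alpha values or to any interval. Those members could not pass with DESeq2. Of all genes, 0.28% passed in males and 0% in females with edgeR. DESeq2 called 87 rising and 116 falling genes of 19636 in males, and 9 rising and 13 falling genes in females. In males 0 members had an unadjusted p below 0.05, against 9.29% of genes with deposited values and 9.28% with intervals. In females there were 0 deposited values and 1 interval (Pcdhga3), against 10.5% of genes with deposited values and 10.5% with intervals. Pcdhga3 was 1.91, 2.38 and 2.93 CPM in morphine females, against 2.53, 3.04 and 3.08 CPM in saline females (log2 fold change -0.36 ± 0.12, edgeR adjusted p = 0.375), and in males the smallest p was that of the alpha end, with a log2 fold change of 0.08 ± 0.053 (edgeR adjusted p = 0.707). Pcdhgc4 was 1.18, 1.74 and 1.86 CPM in PND14 morphine males, against 1.34, 1.54 and 1.76 CPM in saline males, and 1.32, 1.40 and 1.77 CPM in morphine females, against 1.30, 1.44 and 1.51 CPM in saline females. The gamma end was 23.1, 24.1 and 25.6 CPM in morphine males, against 22.4, 24.1 and 25.2 CPM in saline males, and 22.5, 23.5 and 24.6 CPM in morphine females, against 22.2, 24.3 and 24.6 CPM in saline females. Pcdhgc3 was 3.62, 4.36 and 4.78 CPM in morphine males, against 4.04, 4.48 and 5.01 CPM in saline males, and 3.66, 3.89 and 4.42 CPM in morphine females, against 3.83, 4.40 and 5.12 CPM in saline females. Morphine and saline libraries overlapped for each of these genes. The alpha end was 15.4, 16.5 and 17.1 CPM in morphine males, against 14.5, 15.5 and 17.5 CPM in saline males, and 14.4, 15.5 and 17.0 CPM in morphine females, against 15.1, 16.1 and 16.8 CPM in saline females, and Pcdhac1 had at most 8 counts in any PND14 library. The log2 fold changes of the 14 deposited alpha values lay between 0.05 and 0.08 in males and between -0.07 and -0.02 in females. Those of the beta genes lay between -0.20 and 0.36 in males and between -0.29 and 0.19 in females. The difference between the sexes passed for 0 members with edgeR or DESeq2, against 0% of all genes, and had an unadjusted p below 0.05 for 0 deposited values and 1 interval (Pcdhga3), against 3.44% of genes with deposited values and 3.44% with intervals.

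In the 3-Tri window, where 12 of 24 libraries went against their sex label, 0 members passed in either sex with edgeR or DESeq2, against 0% of all genes in males and 0% in females. Without those libraries the count was also 0 in either sex. They were 4 of 6 in each morphine group and 2 of 6 in each saline group. Few pups remained, so that this 0 decides little. In males there were 0 deposited values and 1 interval (Pcdhga1) at an unadjusted p below 0.05, against 4.98% of genes with deposited values and 4.9% with intervals. In females there were 0 of either, against 2.41% and 2.42%. Pcdhga1 had an interval of 1.05, 1.50 and 1.65 CPM in morphine males, against 1.64, 1.78 and 2.05 CPM in saline males (log2 fold change -0.37 ± 0.14, edgeR adjusted p = 0.928), and in females the smallest p among the intervals was that of Pcdha4 (log2 fold change 0.24 ± 0.12, edgeR adjusted p = 1.00). Pcdhgc4 was 1.61, 1.70 and 1.79 CPM in 3-Tri morphine males, against 1.12, 1.58 and 1.78 CPM in saline males, and 1.38, 1.69 and 1.92 CPM in morphine females, against 1.44, 1.56 and 1.71 CPM in saline females. The gamma end was 21.4, 23.0 and 24.0 CPM in morphine males, against 23.1, 24.5 and 25.3 CPM in saline males, and 22.3, 24.1 and 24.7 CPM in morphine females, against 23.0, 23.6 and 24.9 CPM in saline females. Pcdhgc3 was 4.27, 4.44 and 4.61 CPM in morphine males, against 3.35, 4.49 and 4.78 CPM in saline males, and 4.16, 4.51 and 4.75 CPM in morphine females, against 3.98, 4.34 and 4.65 CPM in saline females. These overlapped as well. The alpha end was 14.7, 15.3 and 15.5 CPM in morphine males, against 15.4, 16.2 and 17.1 CPM in saline males, and 14.6, 15.8 and 16.7 CPM in morphine females, against 15.3, 15.8 and 16.7 CPM in saline females, and Pcdhac1 had at most 8 counts in any 3-Tri library. The log2 fold changes of the 21 deposited gamma values lay between -0.08 and -0.05 in males and between 0.00 and 0.03 in females. The difference between the sexes passed for 0 members with edgeR or DESeq2, against 0% of all genes, and had an unadjusted p below 0.05 for 0 members, against 2.32% of genes with deposited values and 2.34% with intervals.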

How the data were processed

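RNA of single pups was sequenced as paired reads on an Illumina NovaSeq after NEBNext Ultra II library preparation. The authors trimmed reads with Trim Galore 0.6.6, aligned them to mm10 with HISAT2 2.2.1, removed duplicates and counted them per gene with featureCounts 2.0.1. How overlapping genes and strands were counted is not given in the sources used here. The deposited table holds raw counts, and the gene tables of the authors' DESeq2 comparisons hold a mean signal of counts divided by size factors, besides fold changes and p-values, which were not used. Gene names and biotypes were joined from those tables by identifier. Recomputed over all libraries, the mean signal matched for 56 of 56 members at PND1. At PND14 and 3-Tri it matched only without the library with the fewest counts of each window, so that the authors' means there rest on 23 libraries.

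Counts were tested with edgeR 4.0.16 (R 4.3.3) by the quasi-likelihood test, after filterByExpr (minimum count 10, minimum total 15) and TMM scaling, with Benjamini-Hochberg adjustment over all genes and a threshold of 0.05. Morphine was tested within each window in a fit of that window's 4 groups, and age in a fit of all 72 libraries. Intervals were formed by subtraction and fitted in the whole table in place of the deposited alpha and gamma values. Alternatives were DESeq2 1.42.0, its size factors, no filter, a correction for GC content and length, a replicate block, leaving out libraries and, for the ID numbers in the PND14 and 3-Tri labels, each of which holds pups of 1 drug, leaving out each in turn, summing counts per number, or limma 3.58.1 with the number as a random effect. The intervals, and the hindbrain sum as a covariate, were chosen after seeing the data, and the members and gene lists with earlier results of these data known. Named were the C-type genes, the leading member per kilobase, at most 3 members per cluster and direction in the saline age comparison, at most 6 that passed in any other comparison (or else the lowest p), and at most 3 genes of a list. Others named were chosen after their values were seen. The fits were tested on simulated data. For some members the printed standard errors are smaller than the edgeR p-values imply, and they are not the measure behind those p-values. Positions and exon lengths came from a GENCODE annotation of mm10.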

Additional observations from a re-analysis of the deposited data

Results flagged for a closer look

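Values of 8 quantities (the 3 cluster totals, Pcdhac2 and Pcdhgc5, and the intervals of Pcdhac1, Pcdhgc3 and Pcdhgc4) were screened in 12 groups, and in 9 of the 96 a library stood far from the others by Dixon's criterion. Chance gives about 1 in 20. The gamma total was 36.3 CPM in PND1 saline female replicate 5, against between 42.6 and 44.9 CPM in the rest of that group, and 51.2 CPM in 3-Tri saline male replicate 2, against between 45.7 and 47.6 CPM. Both are libraries against their sex label, as is PND1 morphine male replicate 5, in which Pcdhgc5 was 19.7 CPM, against between 15.3 and 16.7 CPM. In 3-Tri saline male replicate 1, the library with the fewest counts, the Pcdhac1 interval was 0.744 CPM, against between 0.253 and 0.362 CPM, and the Pcdhgc3 interval was 3.35 CPM, against between 4.37 and 4.78 CPM. The beta total was 38.4 CPM in PND14 morphine male replicate 3, against between 42.8 and 44.5 CPM. Pcdhgc5 was 22.2 CPM in PND14 saline female replicate 6, against between 24.1 and 24.6 CPM. The Pcdhgc3 interval was 3.11 CPM in PND1 saline male replicate 13, against between 3.61 and 3.89 CPM, and the Pcdhac1 interval was 0.129 CPM, or 3 counts, in PND1 morphine female replicate 2, against between 0.158 and 0.162 CPM.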

How the results depend on the processing

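Of the 15 comparisons, 13 kept their count of members past the threshold within 1.5 times under every setting other than intervals and the hindbrain covariate. The exceptions were morphine in PND1 males and the difference of the age change between morphine and saline. In PND1 males the count of 12 became 0 with no filter, with GC and length correction, with the replicate block, alone or with that correction, with the hindbrain sum as covariate, and as intervals, where it was also 0 without the 2 libraries with the fewest counts, with GC and length correction or with the covariate, and 1 with DESeq2 or without libraries against their sex label. It was 20 for deposited values without those libraries, and between 0 and 21 when single libraries were left out. Replicate numbers did not pair the pups, and the block kept the counts at 47 (PND14 saline), 48 (3-Tri saline) and 49 (PND14 morphine).

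As intervals the counts with age were lower, since nested values no longer repeat each other and fewer members pass the filter. In PND14 saline pups 26 passed, also 26 without the 2 libraries with the fewest counts, 24 without libraries against their sex label, 24 with DESeq2 and 24 with GC and length correction. In 3-Tri saline pups 24 passed, with 24, 20, 22 and 22 under the same settings, and in PND14 morphine pups 26 passed, with 26, 26, 24 and 25. With libraries or ID numbers left out, the deposited counts lay between 45 and 47 (PND14 saline), 44 and 47 (3-Tri saline) and 46 and 50 (PND14 morphine). The difference of the age change between morphine and saline gave between 0 and 1 then, and 1 for intervals without the 2 libraries with the fewest counts. As intervals the log2 fold change of Pcdhgc4 turned to -0.91, -0.82 and -0.74 with age in PND14 saline, 3-Tri saline and PND14 morphine pups, those of Pcdhgb7 and Pcdhga11 to -0.90 and -0.039 in PND14 morphine pups, and that of Pcdhgb7 to 0.037 with morphine in PND1 males. In PND14 saline pups the intervals of Pcdha2, Pcdhga2, Pcdhga4, Pcdhgb6 and Pcdhgb7 fell as well, against deposited values that rose. Over named members, 3151 of 3248 values kept their direction and side of the threshold. Of these values 6 reversed, a count that does not hold every reversal of an interval. The intervals of Pcdhac1 (at most 8 counts per library in saline pups) and Pcdha8 (at most 3) were below the filter on low counts and were not tested for a change with age.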
